A study of Homo sapiens with 6 samples.

Results

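Plasma carriers and apolipoproteins are secreted proteins that move lipids, retinol and thyroid hormone between tissues. The genes named for this group were APOA1, RBP4, TTR, APOE, APOH, APOB and CLU, chosen by symbol with their siMNX1 and siNT values already known. Of these 7 genes, 6 were present among the 16792 genes of the deposited table. The values of APOH were not analysed here. Because the members were chosen with this contrast in view, their group differences are given as a description, without p-values.

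The study sequenced RNA from EndoC-βH1 cells (EndoCBH1 in the labels) in 6 libraries. EndoC-βH1 is an established human pancreatic beta cell line. In 3 libraries the cells were labelled WT and had received a non-targeting siRNA (siNT), and in 3 they were labelled as MNX1 knock down and had received siRNA against MNX1 (siMNX1), a homeobox transcription factor. All libraries came from this 1 cell line. The sources used here state neither the siRNA dose nor the time after transfection. The labels do not say whether replicates were separate cultures, so the spread behind each p-value is that between these libraries and may be technical.

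The title of the study concerns repression of somatostatin by MNX1 in human beta cells, and the carrier genes are a different subject within the same libraries. Deposited totals lay between 18406479 and 18704645 per library, which reflects the authors' normalization and not the depth, and the depth of each library is unknown. Mitochondrial transcripts made up 5.39% to 6.81% of the totals. The targeted gene MNX1 had 2039, 2033 and 1988 normalized counts across the siNT libraries in replicate order and 1885, 1708 and 1751 with MNX1 siRNA, and its log2 difference of -0.18 was not called at an adjusted p of 0.05 (limma, adjusted p = 0.116), although all siMNX1 libraries were below all siNT libraries. INS, which encodes insulin, lay between 107169 and 114592 in siNT and between 119146 and 130171 in siMNX1, and was not called (limma, adjusted p = 0.0656). All 9 beta cell markers were present. INS made up most of their sum, so the sum largely restates INS and does not describe the other beta cell markers. Of these, IAPP was lower with MNX1 siRNA (log2 difference -1.84, described below), and the rest are not given singly here. The sum of all 9 was 133090 to 141086 in siNT and 143182 to 154547 in siMNX1. The sums of 2 measured ductal markers of 6 (1138 to 1306 and 1331 to 1432) and of 2 immune markers of 4 (5778 to 6232 and 5031 to 5646) did not overlap either, with 0 of these markers listed at 0. The part of these shifts in the values of the carrier genes was not tested. The summed acinar (554 to 640 in siNT, 585 to 606 in siMNX1) and mesenchymal markers (20.3 to 57.1 and 40.0 to 53.7) overlapped. So did enteroendocrine and enterocyte markers (16490 to 17821 and 17348 to 18443). Markers of gamma, epsilon and endothelial cells (0 of 2 and 0 of 4 present) could not be assessed.

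Apolipoproteins are the protein part of lipoprotein particles. APOA1 is the main protein of high-density lipoprotein and accepts cholesterol from cells, APOB is the large scaffold of very-low-density and low-density lipoproteins, and APOE is a ligand for lipoprotein receptors on cells. RBP4 carries retinol in blood and circulates bound to TTR (transthyretin), which also carries thyroxine. CLU (clusterin, also called apolipoprotein J) is a secreted chaperone found on some lipoprotein particles. Liver is the major source of most of these proteins, and TTR is also known as an abundant protein of pancreatic islets.

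Levels differed widely between the members. Per kilobase of principal transcript, TTR was the most abundant in siNT cells with 7756 ± 475 normalized counts (SD, n = 3), above 99.4% of 13386 protein-coding genes. CLU had 3338 ± 115 per kilobase (98.0th percentile), RBP4 747 ± 20.4 (85.4th) and APOA1 535 ± 56.3 (78.4th). APOB had 178 ± 26.6 per kilobase, near the middle of all genes at the 49.8th percentile, and APOE was lowest with 41.5 ± 5.29 (20.8th). Neighbours in this order differed by more than the sum of their SDs. In siMNX1 cells APOA1 (932 ± 38.6 per kilobase) lay above RBP4 (386 ± 41.5), while TTR (7736 ± 482), CLU (3240 ± 115), APOB (112 ± 15.4) and APOE (47.9 ± 8.13) kept their places. TTR and CLU together made up 80.8% ± 1.96 of the summed normalized counts of the 6 genes in siNT and 84.0% ± 1.02 in siMNX1, counted without regard to length.

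Between the groups, APOA1 was higher and RBP4 and APOB were lower with MNX1 siRNA, while TTR, CLU and APOE overlapped. The siNT and siMNX1 libraries did not overlap for 3 of the 6 members, where 24.0% of all genes showed no overlap. The same 3 were past the threshold of the fit over all genes (adjusted p of 0.05, limma), against 3.32% of all genes, and the same 3 differed by at least 1.5-fold, against 6.19%. Since the members were chosen on this contrast, nothing is read from these counts. The median log2 difference was -0.02 over the 6 members and -0.00045 over all genes.

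**Figure D1:**
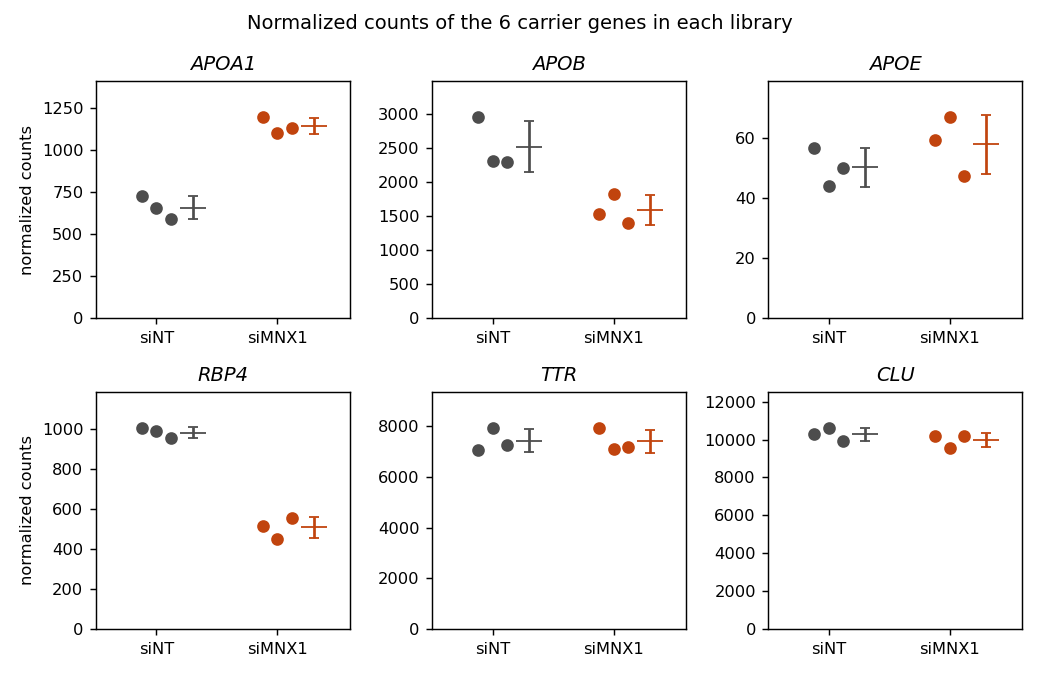
Normalized counts (vertical axes, from 0) of the 6 genes in each of the 3 siNT and 3 siMNX1 libraries, with one point per library in replicate order and the group mean with its SD beside the points. APOA1 is higher in all siMNX1 libraries, RBP4 and APOB are lower, and the groups overlap for APOE, TTR and CLU.

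APOA1 (minus strand of chromosome 11, from 116835751 to 116837950 in GRCh38) had 727, 654 and 589 normalized counts across the siNT libraries in replicate order and 1196, 1103 and 1133 with MNX1 siRNA. The lowest siMNX1 library was well above the highest siNT library. The means were 657 ± 69.1 and 1144 ± 47.4 (SD, n = 3 each), a 1.74-fold higher level with MNX1 siRNA. On the log2(value + 1) scale the difference was 0.80 (SE 0.084, 95% interval 0.61 to 0.99), and it lay between 0.73 and 0.88 with any 1 library left out. A transcript on the opposite strand, APOA1-AS, shares 123 of the 1424 exon bases of APOA1 (8.64%). The sources used here do not say how strand was handled, so reads from these bases cannot be assigned to one strand.

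APOB (chromosome 2, 21001429 to 21044073, minus strand) had 2948, 2307 and 2287 normalized counts across the siNT libraries in replicate order and 1535, 1826 and 1401 with MNX1 siRNA. siNT replicate 1 was the highest library and all siMNX1 libraries were below all siNT libraries. The means were 2514 ± 376 and 1587 ± 217, a 1.58-fold lower level. The log2 difference was -0.66 (SE 0.116, 95% interval -0.92 to -0.40). It was -0.54 without siNT replicate 1. Without siMNX1 replicate 1 it was -0.64, and only 2 of the 6 members were then past the threshold, APOB no longer among them. Over all genes, that fit called 164 higher and 92 lower, beside 335 and 223 with all 6 libraries. The members were chosen on this contrast, so nothing is read from that member count.

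APOE (chromosome 19, 44905754 to 44909393, plus strand) was near the low end of the deposited values. It had 56.6, 43.9 and 50.01 normalized counts across the siNT libraries in replicate order and 59.4, 66.8 and 47.3 with MNX1 siRNA. The groups overlapped, with siMNX1 replicate 3 below 2 of the siNT libraries. The log2 difference of 0.19 had an interval of -0.26 to 0.65, which spans a modest decrease as well as an increase about as large in size as the decrease of APOB. It was 0.10 without siNT replicate 2, 0.09 without siMNX1 replicate 2 and 0.33 without siMNX1 replicate 3. Its spread within groups was the largest of the members, with an SD of 0.22 on the log2 scale, where the median over all genes was 0.13.

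Markers of hepatocytes, the main producers of lipoproteins in the body, were examined beside these values. Of 8 fixed markers 5 were present and 0 of these were listed at 0 in all libraries. Their summed level was 8039 to 8818 normalized counts in siNT and 8821 to 10523 in siMNX1, higher in the group where APOA1 was higher and APOB lower. SERPINA1, an inhibitor of neutrophil elastase, made up most of this sum with 7908 to 8694 in siNT and 8658 to 10324 in siMNX1, with an adjusted p of 0.0982 (limma), short of a call. ALB (9.81 to 34.4 over the 6 libraries) and AHSG (18.1 to 27.4), which encode the abundant liver proteins albumin and fetuin-A, were near the low end of the table. The part of these markers in the values of APOA1 and APOB was not tested.

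**Figure D2:**
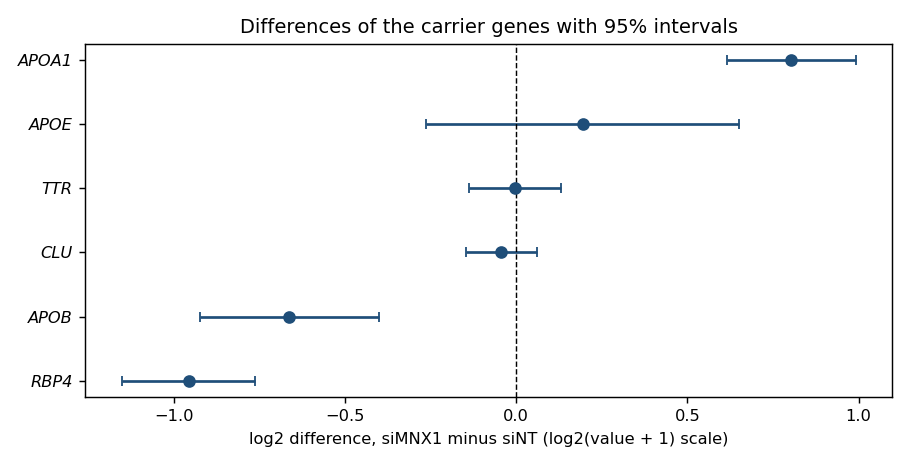
Log2 difference (siMNX1 minus siNT, horizontal axis) of each of the 6 genes, with its 95% interval from the fit over all genes. APOA1 lies at 0.80, APOB at -0.66 and RBP4 at -0.96, and the intervals of TTR, CLU and APOE include 0.

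RBP4 (chromosome 10, 93591687 to 93601744, minus strand) differed most between the groups among the members. It had 1004, 987 and 952 normalized counts across the siNT libraries in replicate order and 516, 448 and 556 with MNX1 siRNA. Both groups were tight and far apart, with the highest siMNX1 library well below the lowest siNT library. The means were 981 ± 26.8 and 507 ± 54.5, a 1.94-fold lower level with MNX1 siRNA. The log2 difference was -0.96 (SE 0.087, 95% interval -1.15 to -0.76), and it lay between -1.03 and -0.87 with any 1 library left out. RBP4 is also a known marker of islet delta cells. Of 6 fixed delta cell markers 5 were present, 0 of them at 0, and their summed level was 8916 to 9305 in siNT and 12581 to 14419 in siMNX1, opposite in direction to RBP4. Among them CASR, a calcium-sensing receptor, and the prohormone convertase PCSK1 made up most of the sum, so it largely restates these genes. SST, the delta cell hormone, rose by 1.96 on the log2 scale, and HHEX and LEPR are not given singly here. The part of these markers in the value of RBP4 was not tested. In these bulk libraries fewer cells of a type and less RNA per cell cannot be told apart.

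TTR (chromosome 18, 31557010 to 31599021, plus strand), the partner of RBP4 in blood, was nearly the same in both groups. It had 7074, 7936 and 7257 normalized counts across the siNT libraries in replicate order and 7933, 7090 and 7187 with MNX1 siRNA. The groups overlapped almost fully, with means of 7422 ± 455 and 7403 ± 461. The log2 difference was -0.004 with an interval of -0.14 to 0.13, which leaves out a difference of the size seen for RBP4. CLU (chromosome 8, 27596917 to 27615031, minus strand) had 10319, 10616 and 9908 in siNT and 10171, 9569 and 10195 in siMNX1. These groups overlapped too, with a log2 difference of -0.04 (95% interval -0.15 to 0.06), and CLU had the smallest spread of the members (SD 0.051 on the log2 scale).

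Ratios within a library do not depend on the scaling between libraries. The APOA1 to APOB ratio was 0.247, 0.283 and 0.258 across the siNT libraries in replicate order and 0.779, 0.604 and 0.809 with MNX1 siRNA. The lowest siMNX1 ratio was above the highest siNT ratio, and the mean was 2.78-fold higher with MNX1 siRNA. The RBP4 to TTR ratio was 0.142, 0.124 and 0.131 in siNT and 0.0651, 0.0632 and 0.0774 in siMNX1, a 1.93-fold lower mean. RNA for the retinol carrier was thus lower relative to RNA for its partner in every siMNX1 library. Both ratios restate differences of members chosen on this contrast, so nothing further is read from them. They are ratios of normalized counts, not per length, and describe RNA and not secreted protein.

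**Figure D3:**
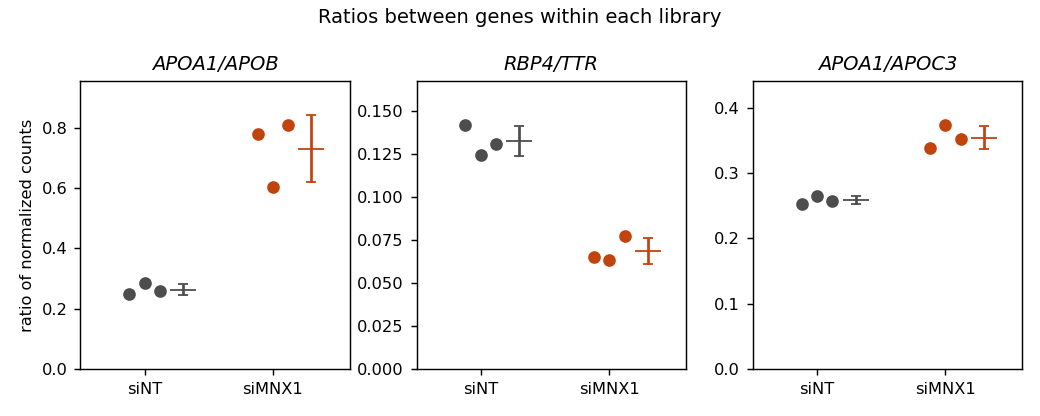
Ratio of normalized counts between 2 genes in each library (vertical axes, from 0), with one point per library and the group mean with its SD. The APOA1 to APOB and APOA1 to APOC3 ratios are higher, and the RBP4 to TTR ratio is lower, in all 3 siMNX1 libraries.

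The region around RBP4 holds a second gene with a lower level. FFAR4, which encodes a receptor for long-chain fatty acids, is annotated on the opposite strand (93566665 to 93604480, plus strand), and its gene model spans all of RBP4. The exons of both genes share 0 bases in GENCODE 29, and reads from their overlapping stretch, introns included, could not be assigned by strand. FFAR4 had 778, 686 and 680 normalized counts across the siNT libraries in replicate order and 454, 490 and 449 with MNX1 siRNA. It fell by 0.62 on the log2 scale (SE 0.082, limma, adjusted p = 0.00382), with adjusted p from 0.00294 to 0.0219 over the alternatives. Of 4 measured neighbours of RBP4 within 250 kb, FFAR4 was the 1 called, beside 3.32% of all genes. The nearest gene on the other side, PDE6C, had a log2 difference of -0.43 and was not called (limma, adjusted p = 0.302). FFAR4 and PDE6C were named after their values were seen.

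Sequences upstream of RefSeq gene starts were available for RBP4 and APOE among the measured members, and for FFAR4. They are shown for the 2 neighbouring genes with lower RNA, and for APOE as a member whose groups overlapped. The letters are from RefSeq on GRCh38.p14, on the strand of the gene and 5′ to 3′, cut back to bases outside annotated exons. Capitals mark TAAT, the core recognised by many homeodomain proteins, or TATAAA, the TATA box, on either strand. RBP4 is chr10:93601236-93601361 on the minus strand, FFAR4 is chr10:93566415-93566664 on the plus strand and APOE is chr19:44905546-44905753 on the plus strand.
RBP4: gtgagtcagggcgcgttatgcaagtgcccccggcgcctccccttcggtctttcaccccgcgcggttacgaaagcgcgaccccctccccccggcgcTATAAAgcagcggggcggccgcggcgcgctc
FFAR4: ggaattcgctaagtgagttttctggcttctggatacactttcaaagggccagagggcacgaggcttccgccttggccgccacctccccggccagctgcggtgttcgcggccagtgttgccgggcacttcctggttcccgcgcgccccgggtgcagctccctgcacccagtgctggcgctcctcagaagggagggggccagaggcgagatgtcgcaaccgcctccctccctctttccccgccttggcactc
APOE: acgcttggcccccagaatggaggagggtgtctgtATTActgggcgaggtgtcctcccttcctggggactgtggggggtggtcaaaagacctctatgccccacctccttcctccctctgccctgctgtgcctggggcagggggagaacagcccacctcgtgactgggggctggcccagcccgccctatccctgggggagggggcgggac

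The motifs were searched in the full 250 bases before each start, in either orientation. The motifs can share bases, but the matches given here do not overlap. RBP4 has TATAAA beginning 31 bases before its start. FFAR4 has neither motif in this window. APOE has TAAT beginning 216 bases before its start on the opposite strand, and again at 29 bases, outside the letters shown. Of 35116 windows of the same length, 47.4% hold TAAT and 10.7% hold TATAAA on either strand. A match is a description of letters, and no binding was measured here.

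APOA1 lies in a cluster with other apolipoprotein genes. APOC3, an inhibitor of lipoprotein lipase whose gene starts 8.24 kb from that of APOA1, had 2874, 2471 and 2291 normalized counts across the siNT libraries in replicate order and 3543, 2954 and 3224 with MNX1 siRNA. All siMNX1 libraries were above all siNT libraries, but the log2 difference of 0.35 was not called (limma, adjusted p = 0.0713). It passed without siNT replicate 1 (adjusted p = 0.0395) and without siMNX1 replicate 2 (0.0477), within a range of 0.0395 to 0.222 over the alternatives. APOA4, which starts 14.6 kb from APOA1 and encodes an intestinal apolipoprotein, had 46.8 ± 16.5 and 42.8 ± 7.46 (log2 difference -0.08, limma, adjusted p = 0.903). The APOA1 to APOC3 ratio was 0.258 ± 0.006 in siNT and 0.354 ± 0.018 in siMNX1. Of the 5 measured genes within 250 kb of APOA1, limma called 0, and 2 had an unadjusted p under 0.05, as 18.4% of all genes did. APOA4 and the genes named below beside APOE were chosen after their values were seen.

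Around APOE, 3 of 17 measured genes within 250 kb were called by limma, 1 higher and 2 lower, beside 3.32% of all genes. BCAM, a laminin-binding adhesion receptor, rose from 3253 ± 15.0 to 5224 ± 243 (log2 difference 0.68, limma, adjusted p = 0.000108). TOMM40, a pore subunit for protein import into mitochondria that ends 2.06 kb before APOE, fell by 0.27, and BCL3, a regulator of NF-κB, fell by 0.55 on the log2 scale. Leaving out any 1 library other than siMNX1 replicate 2 ended both of these calls, with adjusted p from 0.0889 to 0.149 for TOMM40 and from 0.0884 to 0.125 for BCL3. APOC1, the apolipoprotein gene nearest downstream, had 25.6 ± 2.38 and 31.4 ± 7.16 and was not called (limma, adjusted p = 0.635). Limma called 0 of 4 neighbours of TTR (0 at an unadjusted p under 0.05), 0 of 1 of APOB (1 unadjusted) and 0 of 6 of CLU (2 unadjusted), beside 18.4% of all genes at that unadjusted threshold.

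**Figure D4:**
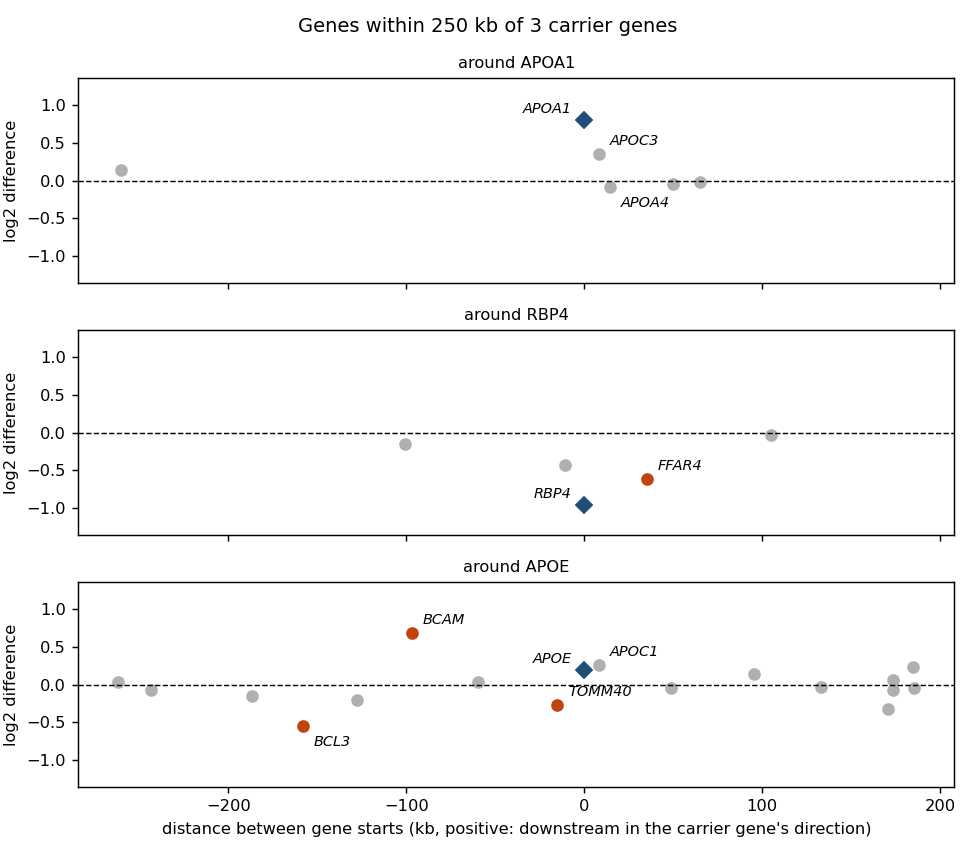
Log2 difference (siMNX1 minus siNT, vertical axes) of measured genes within 250 kb of APOA1, RBP4 and APOE against the distance between gene starts in kb. Diamonds are the carrier genes, orange points passed the threshold and grey points did not. FFAR4 (-0.62) lies beside RBP4 (-0.96), while BCAM (0.68) and TOMM40 (-0.27) near APOE (0.19) have opposite signs.

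Other genes of the same pathways were taken from 8 lists. They held 232 genes other than the members, of which 146 were measured. Limma called 5 higher and 5 lower, or 6.85%, beside 3.32% of all genes (1.99% higher and 1.33% lower). At an unadjusted p under 0.05, 33 were higher and 14 lower, and the counts at that threshold given below for each list stand beside 18.4% of all genes. The median log2 difference was 0.07 over these genes and -0.00045 over all genes. The lists were chosen with earlier results of these data known, so nothing is read from these shares or this median. With 1 library left out, 2 to 7 were higher and 3 to 4 lower: 2 were higher when siNT replicate 2, siNT replicate 3 or else siMNX1 replicate 1 was omitted, and 3 when siMNX1 replicate 3 was. Omitting siNT replicate 1 or 2 left 3 lower.

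Of 23 other apolipoproteins 10 were measured, and limma called 0 (1 higher and 1 lower at an unadjusted p under 0.05), with a median of -0.004. APOOL, a mitochondrial inner membrane protein despite its name, had 1583 ± 91.9 and 1685 ± 133. Of 29 genes of lipoprotein assembly and remodelling 20 were measured, and limma called 0 (4 higher and 1 lower unadjusted), with a median of -0.01. P4HB, a subunit of the microsomal triglyceride transfer complex that loads lipid onto APOB, had a log2 difference of 0.0039, and SURF4, a cargo receptor for secreted lipoproteins, had 0.12. MTTP, the lipid-transferring subunit of that complex, was not analysed here.

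Among lipoprotein receptors and their regulators, 1 of 24 measured genes rose and 1 fell (5 and 2 unadjusted), with a median of 0.04. LRP4, a lipoprotein receptor-related protein known for its role at the neuromuscular junction, had 8165, 8612 and 7877 normalized counts across the siNT libraries in replicate order and 5209, 5967 and 5102 with MNX1 siRNA. It fell by 0.60 on the log2 scale (SE 0.065, limma, adjusted p = 0.00135). Its limma adjusted p lay between 0.000231 and 0.0101 over the alternatives.

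Among genes of retinoid handling, 1 of 23 measured rose and 0 fell (6 and 2 at an unadjusted p under 0.05), with a median of 0.10. LRAT, the enzyme that esterifies retinol for storage in cells, had 472, 431 and 477 normalized counts across the siNT libraries in replicate order and 652, 713 and 705 with MNX1 siRNA. It rose by 0.58 on the log2 scale (SE 0.078, limma, adjusted p = 0.004), opposite in direction to RBP4. STRA6, the cell surface receptor that takes up retinol from RBP4, had 5225 ± 305 and 5115 ± 199 (log2 difference -0.03, limma, adjusted p = 0.822), named for its role after its value was seen.

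Among genes of thyroid hormone handling, 1 of 12 measured rose and 1 fell (2 and 1 unadjusted), with a median of 0.09. SELENOP, the selenium carrier of plasma, fell from 629 ± 67.9 to 393 ± 13.03 (log2 difference -0.67, limma, adjusted p = 0.00488), and stands in the list of other plasma proteins too.

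Of 45 other plasma proteins 20 were measured, and 1 rose and 2 fell (5 and 2 unadjusted), with a median of 0.19. SERPINF2, the inhibitor of plasmin, had 125, 131 and 139 normalized counts across the siNT libraries in replicate order and 389, 331 and 327 with MNX1 siRNA. It rose by 1.40 on the log2 scale (SE 0.112, limma, adjusted p = 0.000229). GC, the vitamin D carrier of plasma and a marker of alpha cells in islets, fell from 11527 ± 377 to 9478 ± 241 (log2 difference -0.28, limma, adjusted p = 0.00911), and was no longer called when siNT replicate 2 was omitted (0.0513). The 4 measured alpha cell markers of 5 summed to 11829 to 12615 in siNT and 9789 to 10355 in siMNX1. GC is itself 1 of these 4 and made up most of their sum, so the sum largely restates GC. The part of the other alpha cell markers in the value of GC was not tested. Among 9 measured amyloid-forming secreted proteins other than TTR and APOA1, 0 rose and 1 fell (2 and 2 unadjusted), with a median of -0.07. The called gene was IAPP, which encodes islet amyloid polypeptide, with 57.8 ± 16.1 and 15.3 ± 3.76 (log2 difference -1.84, limma, adjusted p = 0.0123). Omitting siNT replicate 1 (limma, adjusted p = 0.0583) or siNT replicate 2 (0.0671) ended this call.

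The 30 measured transcription factors and cofactors of endoderm and lipid metabolism include several known to act on apolipoprotein genes in liver. Of these 30, 1 rose and 1 fell (9 and 4 unadjusted), with a median of 0.11. HNF4G, a nuclear receptor related to HNF4A, rose by 0.54 (limma, adjusted p = 0.0406), and NR2F6, an orphan nuclear receptor, fell by 0.24 (limma, adjusted p = 0.0479). The HNF4G call ended when any 1 library other than siMNX1 replicate 2 was left out (adjusted p from 0.0896 to 0.15), and the NR2F6 call when any 1 other than siNT replicate 2 was left out (adjusted p from 0.0791 to 0.159). Scaling to equal totals (adjusted p = 0.052) or by the median of ratios (0.0502) also ended the NR2F6 call. HNF4A, known as an activator of APOA1, APOB and TTR in liver and named after its value was seen, had 3900 ± 79.9 and 4222 ± 203 (log2 difference 0.11, limma, adjusted p = 0.266).

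**Figure D5:**
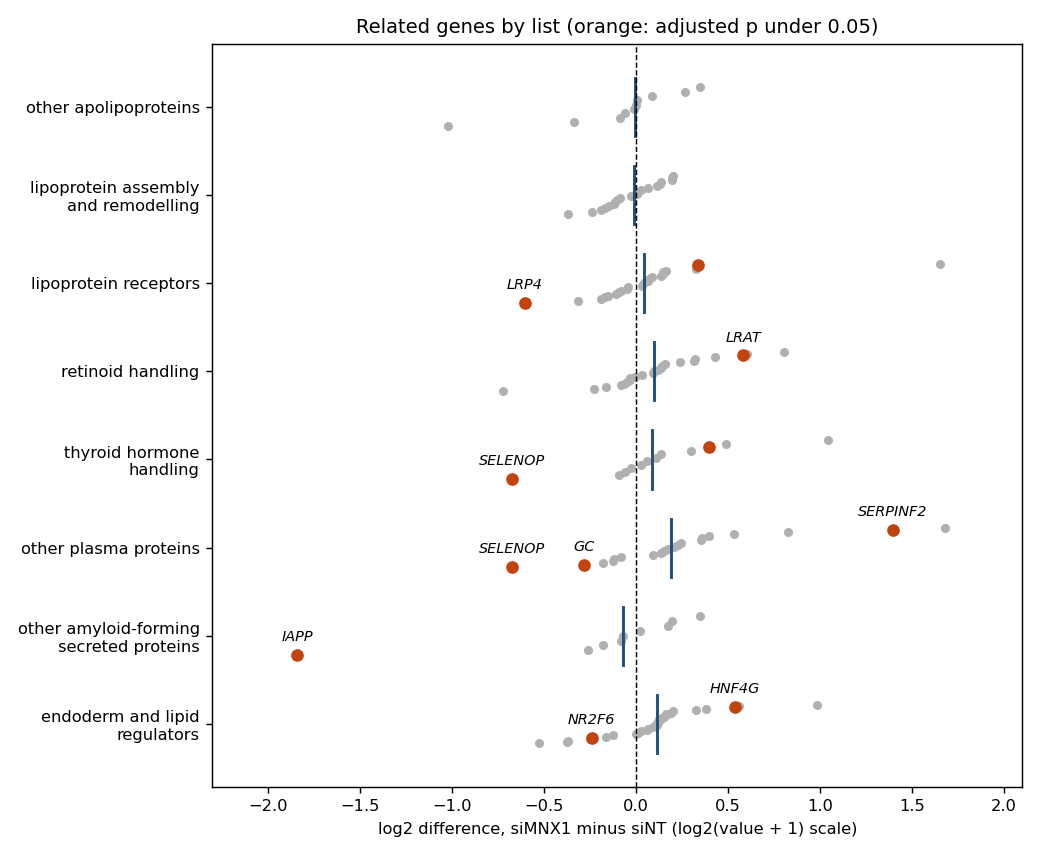
Log2 difference (siMNX1 minus siNT, horizontal axis) of every measured gene of the 8 related lists, one point per gene. Blue bars are list medians, orange points passed an adjusted p of 0.05, names mark those described in the text, and genes in 2 lists appear in both. Called genes lie on both sides of 0 and list medians lie between -0.07 and 0.19.

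The genes whose values followed each member most closely were found by Pearson's r of log2(value + 1) over the 6 libraries, among 12659 genes with a symbol and a mean of at least 50. Libraries of 1 group share their treatment, so for members that differ between groups a high r largely restates that difference. APOA1 was followed by PLEKHA4 (r = 0.998), TMEM190 and C22orf42, which had log2 differences of 0.31, 1.82 and 0.91. RBP4 was followed by PNP (r = 0.997), RPP25 and SHMT1, with smaller differences of -0.27, -0.33 and -0.30. APOB was followed by PHGDH (r = 0.999), the first enzyme of serine synthesis, with 165 ± 21.5 and 111 ± 13.1, and by MCMBP and OSGIN1. TTR was followed by POLR2F (r = 0.994), DCUN1D4 and PRMT3, CLU by FSTL4 (r = 0.992) and RCN2, and APOE by MED20 (r = 0.997), NEMF and CRKL. No p is given, since these are the highest of many values over few libraries.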

How the data were processed

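Values are normalized counts, a signal per gene that the authors deposited in a single table of 16792 genes and 6 libraries. The submitters' processing notes list STAR (2.7.6a), RSEM (1.3.1), DESeq2 (1.26.0), DESeq and R (3.6.3), and the build GRCh38, without saying what each did. Per the labels' protocols, 5 ng of total RNA per sample entered the library kit and ribosomal RNA was depleted, while the molecule field names polyA RNA. Annotation, gene filter and strand setting: not given in the sources used here. Of values under 10, 25.8% to 47.4% lay within 0.02 reads of a whole multiple of one step, so reads were not recovered and depth is unknown. No pair of libraries shared a nonzero value.

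Values were analysed as log2(value + 1), a scale that understates changes of low genes. A linear model of group was fitted over all genes with limma 3.58.1 (R 4.3.3) and a variance trend, with Benjamini-Hochberg adjustment and a threshold of 0.05. A minimum mean of 5 removed no gene, since the lowest mean was 6.57. Members and lists were chosen with earlier results of these data known. In each list the rule named up to 4 called genes by smallest adjusted p (the 2 of highest mean in lists with no call), and for each member the 3 genes of highest r. A few genes that the rule names are not reported here. Positions and transcript lengths came from GENCODE 29. Symbols came from the file for 14738 genes and from a gene table for 417. The procedure was tested on simulated data built on the siMNX1 and siNT libraries (16792 genes). It recovered 52% of genes changed 1.5-fold and 78% of genes changed 2-fold, and 4.27% of all its calls were false. Tables and plots were made with Python 3.11.15, pandas 2.3.3, numpy 2.4.6 and matplotlib 3.10.9. The alternatives were other pseudocounts, filter and scalings, a robust variance, a replicate block and each library left out.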

Additional observations from a re-analysis of the deposited data

How the results depend on the processing

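The log2 differences of the 6 members moved by less than 1 within-group SD under all 14 alternatives. With 3 libraries a group, leaving 1 out cannot move a difference by that much. The filter, the robust variance and the replicate block leave it unchanged by construction. Only the other pseudocounts and scalings could have moved it further, so nothing is read from the rest. The log2 difference of TTR lay between -0.05 and 0.05 and thus took either sign. Over all genes, 335 were higher and 223 lower, and these counts ran from 133 to 257 and from 64 to 179 with 1 library left out. Of the 146 related genes, 5 were higher and 5 lower, and with 1 library left out 2 to 7 were higher and 3 to 4 lower. Same-numbered libraries did not deviate together (correlations of deviations from the group means of -0.08, -0.08 and -0.07 over 13201 genes). No library correlated best with its own number. The labels do not say whether same-numbered libraries shared a culture or day, and such weak correlations cannot settle it. With the replicate block the counts were 162 and 75 over all genes and 3 higher among the related genes, where 4 were lower. A block also uses degrees of freedom, so a call lost under it is not described as a weaker effect. Scaling to equal totals, medians of ratios or upper quartiles put the median of all genes at -0.004, 0.002 and -0.005. Reads per value are unknown, so no counting error could be given, and low genes such as APOE are the least certain.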
